A study of Mus musculus with 11 samples.

Results

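Il1b and 9 further genes of the inflammatory cytokine system were followed in mouse liver after forced expression of the intracellular domains of Notch1 (NICD1) and Notch2 (NICD2). The 10 genes, Il1b, Il1a, Il1rn, Il6, Tnf, Ccl2, Cxcl1, Cxcl2, Nfkbia and Tnfaip3, were selected by name and matched through RefSeq accessions to 14 probes, out of 56605 probes and 22911 named genes on the array. Il1b was chosen for its fall in these same samples, so its levels against GFP are given below as a description without a test. Of the 14 probes, 10 gave a signal well above background on 2 or more of the 11 arrays, and these represent 8 of the 10 genes.

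Interleukin-1 beta is made as an inactive precursor, mainly by macrophages, monocytes and neutrophils, and is cut by caspase-1 in the inflammasome before release. Together with interleukin-1 alpha it binds the IL-1 receptor and activates NF-kappaB, which switches on chemokines, interleukin-6 and its own inhibitors, while the receptor antagonist encoded by Il1rn blocks the receptor. In the liver the resident macrophages, called Kupffer cells, are a main source of these cytokines, and hepatocytes answer them with acute phase proteins.

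All mice were male C57Bl6/J animals injected intraperitoneally at 8 weeks of age with adeno-associated virus serotype 8 (AAV8), and the liver was taken 5 days later. The GFP group (n = 3) received 6e+11 viral genomes of a vector for green fluorescent protein. In the NICD1 (n = 3) and NICD2 (n = 3) groups 3e+11 of the respective NICD vector was mixed with 3e+11 of that GFP vector, whereas the NICD1&2 group (n = 2) received 3e+11 of each NICD vector and none for GFP. The CMV promoter, which is not restricted to a cell type, drove each transgene. Every group carried the same total of 6e+11 viral genomes, and no uninjected liver was analysed here. Each step from GFP to an NICD group, or from 1 NICD to both, also lowers the GFP vector dose. The effects of these doses cannot be told apart. RNA came from whole liver tissue, so that fewer cells of a type and less RNA per cell cannot be told apart. Values are log2 normalized signals of a 1-colour array, relative to the 75th percentile of each array, so 0 is the level of that percentile, and levels of different probes are not comparable.

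Of the 62976 spots on each array, 57.0 to 62.0% were well above background. The 10 listed hepatocyte markers were well above background on all 11 arrays. Nrarp, a direct Notch target, stood clear of background on all NICD2 and NICD1&2 arrays and on 2 of 3 NICD1 arrays, but on 0 of 3 GFP arrays. Spp1, a bile duct cell marker, rose in NICD2 by 1.81 (adjusted p = 0.0270) and in NICD1&2 by 2.23 (adjusted p = 0.0111, limma), and differed by 1.71 in NICD1 (adjusted p = 0.0964), with every array of the 3 groups above GFP. The NICD2 call was lost without GFP replicate 1 (difference 1.69, adjusted p = 0.121) or GFP replicate 2 (difference 1.78, adjusted p = 0.104). The NICD1&2 call was lost without GFP replicate 2 (difference 2.20, adjusted p = 0.0530). The Notch target Hes1 differed by -0.03 in NICD1 (adjusted p = 0.994), 1.64 in NICD2 (adjusted p = 0.419) and 1.36 in NICD1&2 (adjusted p = 0.280), in a list of 7 tested Notch targets and receptors with medians of 0.11, 0.21 and 0.16 and 3, 3 and 2 genes below zero. Sox9, a bile duct cell marker, differed by 1.16 in NICD1&2 (adjusted p = 0.197). The arrays there read -0.02 and -1.09, against -1.57, -1.80 and -1.77 in GFP. Lyve1, an endothelial marker, differed by 0.86 in NICD2 (adjusted p = 0.285) and 0.93 in NICD1&2 (adjusted p = 0.162), as the highest of 7 such markers, whose medians were 0.04 and 0.16 with 2 below zero in each. Ncr1, a natural killer cell marker, differed by 1.02 in NICD1&2 (adjusted p = 0.448) and by 0.21 without GFP replicate 1, where it was not well above background. It was the highest of 10 lymphocyte markers, which had a median of 0.16 there and 4 values below zero, down to -0.43. The median log2 difference of all 36060 probes tested was 0.01 for NICD1, 0.02 for NICD2 and 0.12 for NICD1&2 against GFP, so differences of the NICD1&2 group are to be read relative to 0.12.

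The stretch of 250 bases before the start of transcription is shown for 3 members. Il1b is given because its signal was lower in every NICD array, and Nfkbia and Tnfaip3, which encode the inhibitor IkappaB-alpha and the ubiquitin-editing enzyme A20, because both had higher signals in NICD2 and NICD1&2, by differences that did not pass the test. The sequences are those of RefSeq on GRCm38.p6, minus strand, at chr2:129371140-129371389 for Il1b, chr12:55492648-55492897 for Nfkbia and chr10:19015411-19015660 for Tnfaip3, read 5′ to 3′ towards the start. Capitals mark matches, on either strand, to the NF-kappaB consensus, the RBPJ core TGGGAA, the AP-1 motif TGANTCA and the TATA box TATAAA.
Il1b: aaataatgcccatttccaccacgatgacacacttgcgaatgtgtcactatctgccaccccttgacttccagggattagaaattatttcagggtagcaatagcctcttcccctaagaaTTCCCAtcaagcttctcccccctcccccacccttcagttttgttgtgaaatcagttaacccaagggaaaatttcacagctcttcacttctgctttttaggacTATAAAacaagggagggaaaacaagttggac
Nfkbia: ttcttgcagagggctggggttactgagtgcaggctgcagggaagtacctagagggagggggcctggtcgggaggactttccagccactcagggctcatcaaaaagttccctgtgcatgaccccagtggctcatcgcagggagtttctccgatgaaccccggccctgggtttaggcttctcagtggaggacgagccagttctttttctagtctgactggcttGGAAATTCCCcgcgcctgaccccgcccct
Tnfaip3: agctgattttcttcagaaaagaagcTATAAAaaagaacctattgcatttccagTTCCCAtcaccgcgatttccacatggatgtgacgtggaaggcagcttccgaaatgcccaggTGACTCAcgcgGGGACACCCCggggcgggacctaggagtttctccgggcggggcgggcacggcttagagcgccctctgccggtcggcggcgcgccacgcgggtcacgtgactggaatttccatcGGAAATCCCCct

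RBPJ is the DNA-binding partner of the Notch intracellular domains. The Il1b stretch held 1 RBPJ core on the opposite strand, at -133 to -128 from the start, and a TATA box at -31 to -26, with no NF-kappaB consensus match in this window. The Nfkbia stretch held 1 NF-kappaB match at -29 to -20. The Tnfaip3 stretch shown held NF-kappaB matches at -125 to -116 and -12 to -3, an AP-1 motif at -136 to -130, an RBPJ core at -197 to -192 and TATAAA at -225 to -220. RefSeq gives Tnfaip3 another start, whose stretch of the same length at chr10:19011964-19012213 held none of the 4 motifs. RefSeq start sites were matched for 9 of the 10 members, 12 starts in all, and not for Ccl2. The NF-kappaB consensus was found before 5 of these 12 starts, those of Cxcl1, Cxcl2, Il6, Nfkbia and Tnfaip3, against 3.9% of 32851 starts in the whole table. The RBPJ core was found before 7 of 12 starts, against 21.6% of all starts, with 1 site shared by the overlapping windows of a pair of Il1rn starts, and in Il6 it overlapped the NF-kappaB match. The AP-1 motif was found before 4 of 12 starts, against 6.75%, and the TATA box before 4 of 12, against 12.4%. In Cxcl1 and Cxcl2 the NF-kappaB motif read as a match on both strands. These matches describe letters in the sequence, and binding was not measured.

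Il1b mRNA was lower in all 8 NICD livers than in all 3 GFP livers. With probe A_51_P212782, the brighter of the pair for this gene, the log2 signal was -0.44, -0.73 and -0.40 in the GFP arrays. It was -2.53, -2.60 and -2.45 in NICD1, -3.46, -3.31 and -1.82 in NICD2, and -2.36 and -2.17 in NICD1&2. The lowest GFP array thus lay above the highest NICD array, NICD2 replicate 3. The mean log2 difference from GFP was -2.00 in NICD1, -2.34 in NICD2 and -1.74 in NICD1&2, which are signals 4.01-fold, 5.06-fold and 3.34-fold lower. With normexp background correction and quantile normalization these differences shrank to -0.96, -1.0 and -0.92. Among 36060 probes ordered by their difference from GFP, this probe was number 7 from the lowest in NICD1, number 6 in NICD2 and number 33 in NICD1&2. All 8 NICD arrays were below every GFP array for 0.937% of the probes tested. These values chose the gene, and nothing is drawn from them here.

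The second Il1b probe, A_66_P114500, was also well above background on all 11 arrays and gave smaller differences. Its log2 signals were -2.44, -2.20 and -2.17 in GFP, -3.74, -3.13 and -3.58 in NICD1, -3.08, -4.46 and -3.10 in NICD2, and -3.17 and -3.23 in NICD1&2. Again no NICD array reached a GFP array, and the differences were -1.21, -1.27 and -0.93. The NICD2 arrays were ordered differently by the probes: replicate 3 stood above the other two with the brighter probe, whereas replicate 2 stood below the other two with the second. Over the 11 arrays the probes correlated with Pearson's r = 0.83 and Spearman's rho = 0.64, with r = 0.72 without GFP replicates 1 and 3 and r = 0.43 within the 8 NICD arrays. The points share their arrays and their group means, and the value within the NICD arrays is the part that the gap to GFP does not set.

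**Figure D1:**
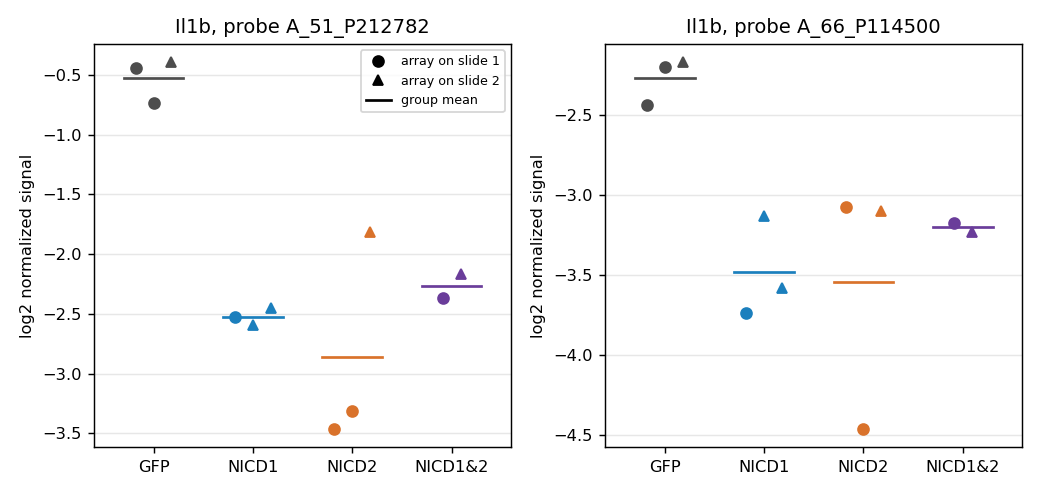
Log2 normalized signal of Il1b (y axes, own scale per probe) by group (x axes), with 1 point per array, circles for arrays on slide 1, triangles for slide 2 and a line at each group mean. With both probes all NICD arrays lie below all GFP arrays, and the NICD2 arrays spread widest, from -3.46 to -1.82 and from -4.46 to -3.08.

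The arrays came from 2 slides that each held arrays of all 4 groups. Slide 1 held 2 GFP, 1 NICD1, 2 NICD2 and 1 NICD1&2 arrays, and slide 2 held 1, 2, 1 and 1. Within slide 1 the brighter Il1b probe differed from GFP by -1.94 in NICD1, -2.80 in NICD2 and -1.78 in NICD1&2, and within slide 2 by -2.13, -1.42 and -1.77.

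The comparison of NICD1 with NICD2 asks whether the receptors differ in their effect. The Il1b signal was higher in NICD1 than in NICD2 by 0.33 (SE 0.37, 95% confidence interval -0.50 to 1.17), and the difference did not pass the test (limma, adjusted p = 1.0). Within slide 1 the value was 0.85 and within slide 2 it was -0.71, so that even its sign was not held. It was 0.86 without NICD2 replicate 3 and 0.0349 without NICD2 replicate 1. The SD was 0.07 in NICD1 and 0.91 in NICD2. The NICD1&2 group had an Il1b signal 0.26 above the NICD1 group (interval -0.67 to 1.19, adjusted p = 0.811) and 0.60 above the NICD2 group (interval -0.34 to 1.53, adjusted p = 0.622). The latter was 1.12 without NICD2 replicate 3 and 0.30 without NICD2 replicate 1. These intervals include differences of more than 1 log2 unit, which 2 to 3 livers a group could not resolve.

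The other members were read against the share of all probes called, that is with an adjusted p under 0.05 over the 36060 probes (limma, Benjamini-Hochberg). The share called was 0.00832% for NICD1, 0.0527% for NICD2 and 0.0998% for NICD1&2 against GFP. It was 0.00277% for NICD1 against NICD2, 0.0139% for NICD1&2 against NICD1 and 0.00277% for NICD1&2 against NICD2. Of the 7 genes besides Il1b that could be tested, with 8 probes, 0 were called in each of the 6 comparisons. At an unadjusted p under 0.05 the counts were 1 of 8 probes for NICD1, 3 for NICD2 and 2 for NICD1&2 against GFP, and 3 for NICD1 against NICD2. The shares of all probes at that level were 5.48%, 6.81%, 14.8% and 3.74%. The definition stated for these arrays, an unadjusted P under 0.15 with a fold change over 1.8, was met by 0 of the 8 probes in each comparison with GFP and between NICD1 and NICD2. That definition was met by 2.22% of all probes for NICD1, 1.98% for NICD2 and 6.23% for NICD1&2 against GFP, and by 1.26% for NICD1 against NICD2.

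Il1a, which lies next to Il1b in the genome and encodes the other agonist of the same receptor, had lower means in all 3 NICD groups with overlapping arrays. Its log2 signals were -3.89, -3.10 and -3.20 in GFP, -3.84, -4.15 and -4.09 in NICD1, -3.84, -4.44 and -4.26 in NICD2, and -4.02 and -3.65 in NICD1&2. GFP replicate 1 lay among the NICD arrays, and the other two GFP arrays lay above all of them. The differences were -0.63 (interval -1.17 to -0.09, adjusted p = 0.883), -0.78 (interval -1.32 to -0.24, adjusted p = 0.501) and -0.43 (interval -1.03 to 0.17, adjusted p = 0.438), none of which passed the test. With normexp background correction and quantile normalization they were -0.14, -0.11 and -0.17.

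Il1rn, the gene of the receptor antagonist, had opposite values in the single NICD groups. Probe A_52_P431159 read -1.36, -1.58 and -1.68 in GFP, -1.88, -1.99 and -1.56 in NICD1, -0.74, -1.34 and -1.39 in NICD2, and -1.46 in both NICD1&2 arrays. All NICD1 arrays were below all NICD2 arrays, as was so for 5.11% of all probes. NICD1 was lower than NICD2 by -0.65 (interval -1.08 to -0.22), which did not pass the test (adjusted p = 1.0), and both groups overlapped GFP. The second probe, A_55_P1962400, well above background on 8 of 11 arrays, differed the other way, by 0.26 (interval -0.42 to 0.93, adjusted p = 1.0).

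Tumor necrosis factor, encoded by Tnf, was measured by 1 of its probes. Probe A_55_P2740937 was well above background on all 11 arrays and A_51_P385099 on 0 of 11. The signals of the first were -0.05, 0.56 and 0.21 in GFP, 0.04, 0.24 and 0.36 in NICD1, -0.48, 0.03 and 0.35 in NICD2, and -0.01 and 0.13 in NICD1&2, with all groups overlapping. The differences from GFP were -0.03 (interval -0.54 to 0.48, adjusted p = 0.991), -0.27 (interval -0.78 to 0.24, adjusted p = 0.912) and -0.18 (interval -0.74 to 0.39, adjusted p = 0.731). For this probe all 3 intervals exclude a fall of 1 log2 unit. The probes differ on whether Tnf was detected at all, and the undetected probe gives no difference.

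Il6, an NF-kappaB target that drives the acute phase response, was barely detected. Probe A_55_P1997756 was well above background on GFP replicate 1 alone, at -4.83, and A_55_P2733612 on GFP replicate 2 alone, at -3.60, and neither was tested. The probe of Cxcl2, a neutrophil attractant, was well above background on 0 of 11 arrays. No fold change is given for either gene.

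Ccl2, the monocyte attractant, was set apart by a single control liver. Its signals were -1.69, -1.37 and -0.04 in GFP, -1.31, -1.60 and -1.48 in NICD1, -1.14, -1.84 and -1.14 in NICD2, and -1.58 and -1.23 in NICD1&2. GFP replicate 3 was above all other arrays, and the other two GFP arrays lay within the range of the NICD arrays. The differences were -0.43 (adjusted p = 0.927), -0.34 (adjusted p = 0.948) and -0.37 (adjusted p = 0.676), and without that array they became 0.07, 0.16 and 0.13.

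Cxcl1, an attractant of neutrophils, varied widely among livers of a group. Its signals were 1.74, 2.26 and 2.33 in GFP, 0.32, 2.50 and 2.74 in NICD1, 1.52, 3.09 and 3.03 in NICD2, and 2.14 and 3.06 in NICD1&2. NICD1 replicate 1 was below all other arrays. The differences from GFP were -0.25 (interval -1.74 to 1.24, adjusted p = 0.976), 0.44 (interval -1.05 to 1.93, adjusted p = 0.967) and 0.50 (interval -1.17 to 2.16, adjusted p = 0.743), and the NICD1 value became 0.51 without its replicate 1. Leaving out 1 array at a time, the NICD2 value ranged from 0.17 to 0.95 and that of NICD1&2 from 0.0337 to 0.96.

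Nfkbia and Tnfaip3, the inhibitors of NF-kappaB that are themselves its targets, had higher signals in NICD2 and NICD1&2 than in GFP, while NICD1 overlapped GFP. Nfkbia read 5.07, 4.91 and 5.16 in GFP, 5.21, 5.06 and 5.27 in NICD1, 5.52, 5.62 and 5.31 in NICD2, and 5.39 and 5.43 in NICD1&2. Its differences from GFP were 0.13 (adjusted p = 0.927), 0.43 (interval 0.17 to 0.70, adjusted p = 0.405) and 0.36 (interval 0.07 to 0.66, adjusted p = 0.273), and the last was 0.19 after quantile normalization and 0.21 after normexp and quantile normalization. Every NICD2 and NICD1&2 array was above every GFP array.

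Tnfaip3 had the same order of groups. It read -1.58, -1.45 and -1.34 in GFP, -1.26, -1.42 and -1.47 in NICD1, -0.34, -0.70 and -1.20 in NICD2, and -0.54 and -1.07 in NICD1&2. The differences from GFP were 0.07 (adjusted p = 0.980), 0.71 (interval 0.21 to 1.20, adjusted p = 0.508) and 0.65 (interval 0.10 to 1.20, adjusted p = 0.285). With normexp and quantile normalization the last 2 were 0.47 and 0.43. The NICD1&2 value was 0.38 without NICD1&2 replicate 1 and 0.92 without NICD1&2 replicate 2. The values within a slide rest on few arrays. NICD2 was above GFP by 0.99 for Tnfaip3 and 0.58 for Nfkbia on slide 1, with 2 arrays in each group. On slide 2, with 1 array in each group, it was above by 0.14 for both. NICD1&2 was above GFP for Tnfaip3 by 0.97 on slide 1 (1 array against 2) and 0.27 on slide 2 (1 against 1). Slide and single livers cannot be told apart here.

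Neither gene passed the test against GFP, nor between NICD1 and NICD2, where Nfkbia differed by -0.30 and Tnfaip3 by -0.63 (adjusted p = 1.0 for both). Together with Il1rn they were the 3 of 8 probes with every NICD1 array below every NICD2 array, against 5.11% of all probes. Against GFP, Nfkbia and Tnfaip3 were the 2 of 8 probes with all arrays above every GFP array, in NICD2 and again in NICD1&2. For all probes that share was 6.98% in NICD1, 7.7% in NICD2 and 24.1% in NICD1&2, so that the NICD1&2 count was near the share of all probes. The share with all arrays below every GFP array was 5.44%, 5.66% and 10.4%, and 0 of the 8 probes were below. The NICD groups share the GFP arrays, so these counts are not independent.

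**Figure D2:**
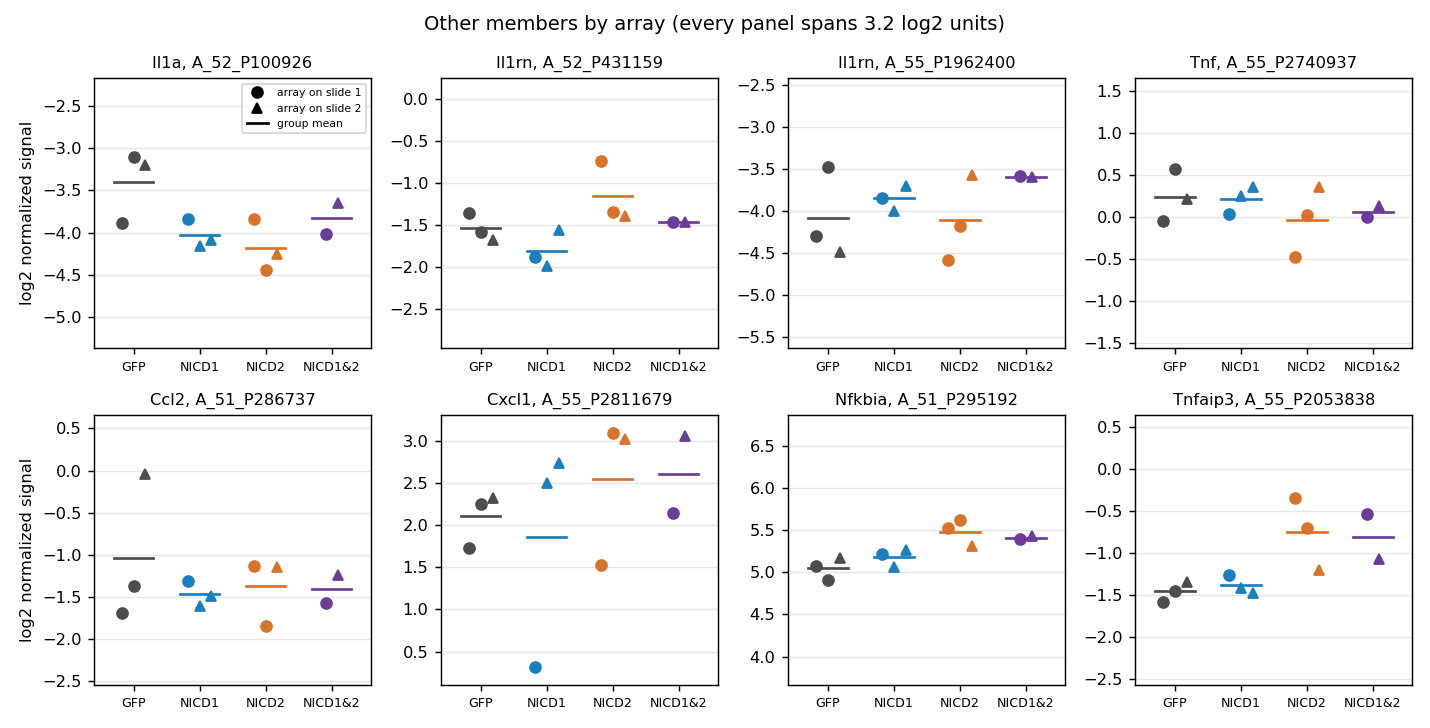
Log2 normalized signal (y axes, each spanning the same number of log2 units) of the 8 tested probes besides Il1b by group (x axes), with 1 point per array, circles for slide 1, triangles for slide 2 and lines at group means. Nfkbia and Tnfaip3 show NICD2 and NICD1&2 arrays above GFP, whereas GFP replicate 3 for Ccl2, at -0.04, and NICD1 replicate 1 for Cxcl1, at 0.32, stand away from their groups.

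**Figure D3:**
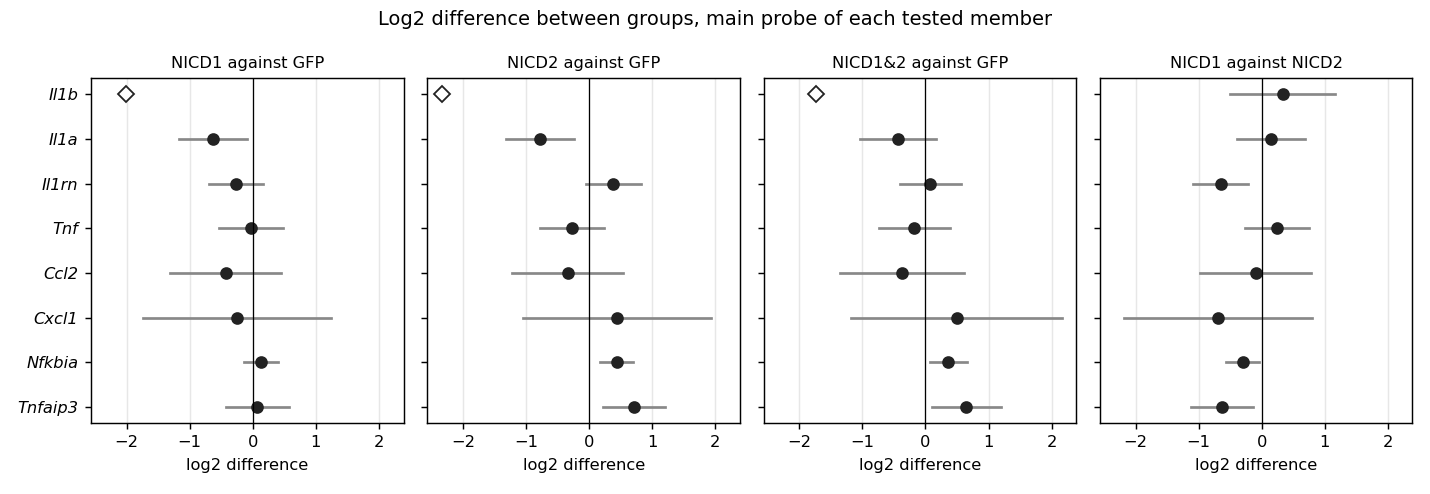
Log2 difference (x axes) of each NICD group from GFP and of NICD1 from NICD2, in 4 panels, for the brightest tested probe of each member (y axis), with 95% confidence intervals from limma as lines. Open diamonds mark Il1b against GFP, without an interval because these values chose the gene. The diamonds lie at -2.00, -2.34 and -1.74, and all other points of these 4 comparisons lie between -0.78 and 0.71.

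The rest of the IL-1 pathway was described by lists of related genes, each gene by its brightest tested probe, and 0 genes of the 13 pathway lists were called in each comparison with GFP. Their medians were small: 18 of the 39 changed sign under another scaling or without 1 GFP array. The 3 lists that kept medians below zero in all NICD groups under these alternatives were the other NF-kappaB inhibitors, the chemokine receptors and the pattern recognition receptors. Of 17 further genes of the IL-1 family and its receptors, 8 were tested, with median log2 differences of -0.04, 0.08 and 0.03 in NICD1, NICD2 and NICD1&2, against 0.01, 0.02 and 0.12 for all probes. Genes for the receptor and for IL-1 processing are named here for their roles, after their values were seen. Il1r1, the signalling receptor, differed from GFP by -0.08 (adjusted p = 0.981), 0.32 (adjusted p = 0.900) and 0.47 (adjusted p = 0.427). Il1rap, its accessory chain, differed by -0.03, 0.12 and -0.06, with adjusted p from 0.788 to 0.982. Of 15 inflammasome and processing genes 13 were tested, with medians of -0.09, -0.07 and 0.05. Among them Casp1, the protease that matures interleukin-1 beta, differed by -0.01, -0.28 and -0.19, and Pycard, the inflammasome adaptor, by -0.30, -0.20 and 0.03, with adjusted p of at least 0.619 in all 6 tests. The IL-1 and Toll-like receptor adaptors (14 of 15 tested) had medians of 0.04, 0.01 and 0.11.

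Downstream, 11 of 12 NF-kappaB subunits and kinases were tested, with medians of -0.12, -0.01 and -0.07 that were 0.0005, 0.01 and 0.02 without GFP replicate 1. The other NF-kappaB inhibitors and feedback genes (14 of 15 tested) had medians of -0.15, -0.14 and -0.09, below zero in NICD2 and NICD1&2, where the signals of Nfkbia and Tnfaip3 were above GFP. Of these 14 genes 12 had values below zero in NICD2, among them Tnfaip2, a gene induced by tumor necrosis factor, at -1.23 (adjusted p = 0.224), with every NICD2 array below every GFP array. The other NF-kappaB targets (15 of 20) had medians of -0.14, -0.19 and -0.04. Vcam1, the adhesion molecule, had a difference of 0.995 in NICD1&2 (adjusted p = 0.159).

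The chemokines besides the members (22 of 30 tested) had medians of -0.08, -0.15 and 0.20, and without GFP replicate 3 these were 0.10, 0.07 and 0.27. The chemokine receptors (16 of 20) had medians of -0.22, -0.22 and -0.07, and 15 of the 16 were below zero in NICD1 and in NICD2. Cxcr2, a receptor for the products of Cxcl1 and Cxcl2, differed by 0.92 in NICD1&2 (adjusted p = 0.356) and by 0.44 without GFP replicate 1, while 11 of the 16 receptors were below zero there. The list of TNF family ligands, receptors and adaptors (20 of 21) had medians of -0.11, 0.01 and 0.11. The other interleukins (19 of 28) had medians of -0.11, -0.20 and 0.12, the last of which was -0.09 without GFP replicate 1 and -0.05 with quantile normalization, and the NICD2 median was -0.07 with normexp and quantile normalization. The pattern recognition receptors (19 of 23) had medians of -0.17, -0.15 and -0.22. Among the interleukins Il12b, the gene of an interleukin-12 chain, differed by 1.04 in NICD1&2 (adjusted p = 0.269). Il12a, the gene of the other chain, stood clear of background on 1 of 3 GFP arrays and both NICD1&2 arrays, and its difference of 1.19 (adjusted p = 0.387) became 0.50 without GFP replicate 1. Ifng, the interferon-gamma gene, had a signal well above background on 2 of 3 GFP arrays and 0 of 2 NICD1&2 arrays (adjusted p = 0.376). Among the pattern recognition receptors Tlr5, the receptor for flagellin, differed by -1.08 in NICD1&2 (adjusted p = 0.0586) and Tlr3, the receptor for double-stranded RNA, by -1.49 (adjusted p = 0.0920).

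The IL-6 family and its receptors (15 of 17 tested) had medians of 0.00, -0.03 and -0.04 with wide ranges. Il6ra, the IL-6 receptor, had higher signals in NICD2, by 1.06 (adjusted p = 0.152), and in NICD1&2, by 1.16 (adjusted p = 0.105), with all arrays above GFP. Socs3, the feedback inhibitor of IL-6 signalling, differed by -1.63 in NICD2 (adjusted p = 0.721), where its arrays read 0.26, 0.79 and 1.56 against 1.70, 3.39 and 2.39 in GFP.

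The acute phase genes, hepatocyte targets of IL-1 and IL-6, were tested for 20 of 21. Their medians were -0.31, -0.18 and -0.07, and 19 of the 20 were below zero in NICD1, 13 in NICD2 and 11 in NICD1&2. Saa1, a serum amyloid A gene, read 7.69, 5.36 and 6.46 in GFP and 4.93, 5.26 and 4.73 in NICD1, a difference of -1.53 (adjusted p = 0.781) that was -0.94 without GFP replicate 1. Saa2, a near-identical copy whose probe may also bind Saa1 transcripts, had the same difference (adjusted p = 0.801). GFP replicate 1 was the highest array for both, and the list's median in NICD1 was -0.23 without it.

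**Figure D4:**
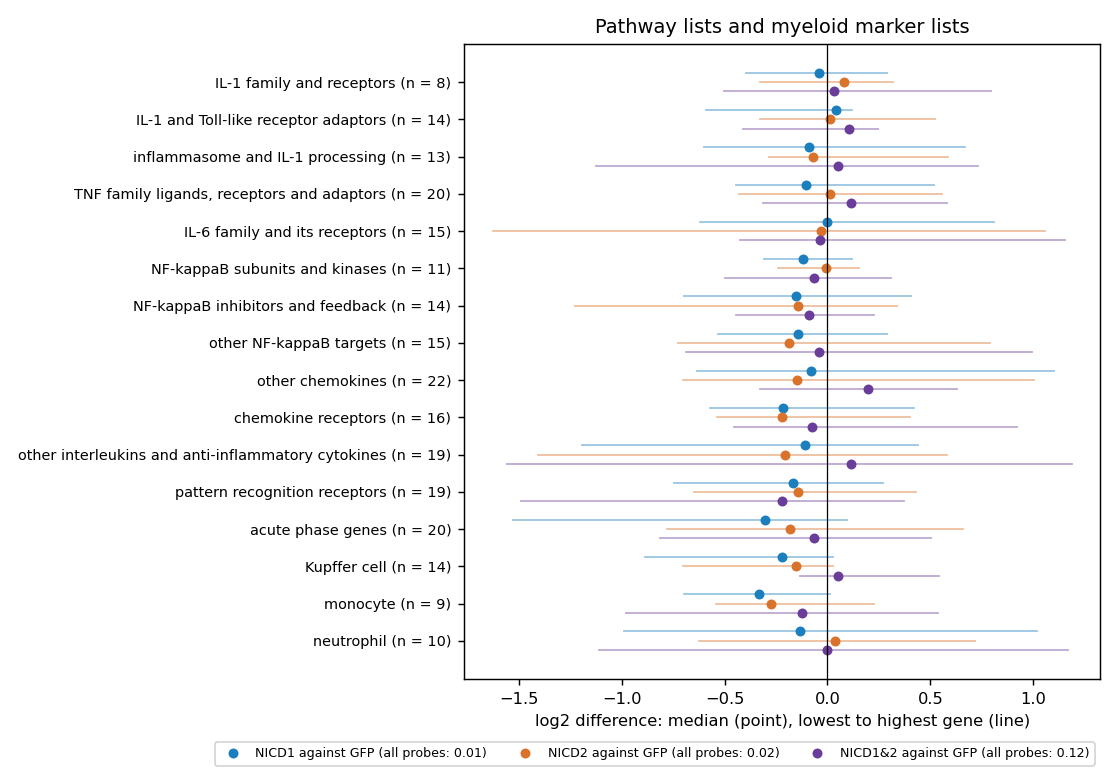
Log2 difference from GFP (x axis) for 13 pathway lists and 3 myeloid marker lists (y axis, with the number of genes tested), as the median (point) and the lowest to highest gene (line) in each NICD group. Medians lie between -0.33 and 0.20, and the legend gives the median of all probes for each comparison.

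Markers of the cells that make IL-1 were compared in the same arrays. All 14 Kupffer cell markers were well above background on all 11 arrays, and their summed linear signal was 144 to 202 in GFP, 140 to 169 in NICD1, 147 to 166 in NICD2 and 184 to 194 in NICD1&2. Of the 14 markers 13 had values below zero in NICD1 and 13 in NICD2. Their medians were -0.22 and -0.15, against 0.01 and 0.02 for all probes. Without 1 GFP array these medians ranged from -0.39 to -0.09 and from -0.33 to -0.04. In NICD1&2 5 markers were below zero, with a median of 0.05 that was -0.03 after quantile normalization. Without 1 GFP array that median ranged from -0.06 to 0.17. The markers share the same arrays, so these counts are not independent. Of 10 monocyte markers 9 were tested and 7 were well above background on all arrays. Their summed signal, in which the brightest probes weigh most, was 567 to 748 in GFP and 593 to 775 in NICD1. It was 718 to 834 in NICD2 and 872 to 1067 in NICD1&2. Of the 9 markers 8 were below zero in NICD1, 8 in NICD2 and 6 in NICD1&2. Their medians were -0.33, -0.27 and -0.12. The last 2 became -0.10 and 0.12 without GFP replicate 3, and the first was -0.17 with normexp and quantile normalization. Itgam, an integrin gene of myeloid cells, differed by -0.98 in NICD1&2 (adjusted p = 0.209). It was the lowest of the 9 there, and 3 were above zero, up to 0.54. Ccr2, a defining receptor of inflammatory monocytes, was well above background on 7 arrays and Chil3 on 4. Of 12 neutrophil markers 10 were tested, with summed signals of 54.0 to 60.7, 51.6 to 62.6, 53.2 to 63.1 and 52.1 to 57.9 and medians of -0.14, 0.04 and 0.00, and Ltf was well above background on 0 arrays. Retnlg, a neutrophil marker, differed by -0.99 in NICD1 (adjusted p = 0.741) and -1.11 in NICD1&2 (adjusted p = 0.189), while 4 and 5 of the 10 markers were above zero in these groups. Ngp, a granule protein gene, was detected on 4 arrays. None of these 33 tested markers was called against GFP. The part that these cells have in the Il1b values was not tested.

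The genes whose pattern over the 11 arrays was most like that of Il1b were sought among 22200 probes of named genes. Each of these probes was well above background on 6 or more arrays. They were Plscr3, which encodes a phospholipid scramblase (Pearson's r = 0.94, Spearman's rho = 0.81), Polm, which encodes DNA polymerase mu (r = 0.93, rho = 0.91), Gm38416 (r = 0.92, rho = 0.91), Bhlhe40, which encodes a basic helix-loop-helix transcriptional repressor (r = 0.91, rho = 0.95), and 1700052K11Rik (r = 0.89, rho = 0.92). Without GFP replicates 1 and 3, the arrays farthest from the Il1b median, r was 0.87, 0.84, 0.83, 0.92 and 0.80. Within the 8 NICD arrays it was 0.72, 0.65, 0.76, 0.88 and 0.70. Bhlhe40 followed Il1b most closely within the NICD arrays among these 5, reading 2.69, 2.83 and 3.10 in NICD1, 2.43, 2.67 and 3.14 in NICD2 and 2.92 and 2.99 in NICD1&2, against 3.21, 3.38 and 3.66 in GFP. The 11 points share arrays and the gap between GFP and NICD, and the 5 genes are the highest of many, so these values are a description.

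**Figure D5:**
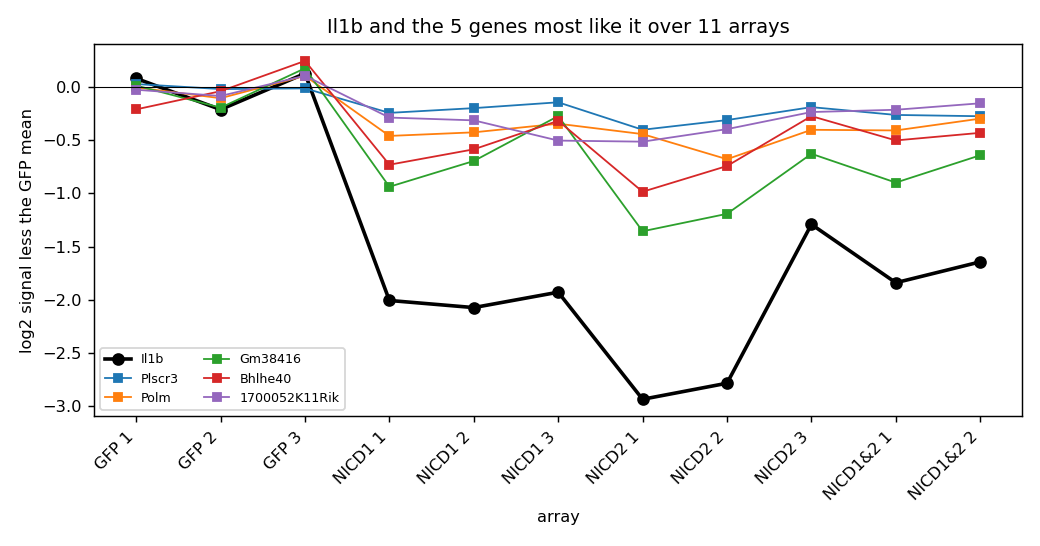
Log2 signal less the mean of the GFP arrays (y axis) on each of the 11 arrays (x axis) for the brighter Il1b probe (black) and the 5 genes with the highest Pearson's r with it. All 6 lie below zero on every NICD array, and NICD2 replicate 3 is the highest NICD array for Il1b and Bhlhe40.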

How the data were processed

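Whole liver RNA of 11 mice was hybridised to 1-colour Agilent arrays. The authors deposited scanner intensity values and a table of log2 values, made per the study's methods by normalization to the 75th percentile. The table equalled log2 of the processed signal less that percentile, within 0.01 for 99.9% or more of the probes on every array, and was the source of all main values. The array format that the methods name has fewer spots than the 62976 that each file held. Groups and replicate numbers came from the sample labels, which do not state that replicate numbers pair mice.

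Probes with a signal flagged well above background on 2 or more of 11 arrays (36060) were fitted with limma 3.58.1 in R 4.3.3, all 11 arrays in 1 model with a mean per group, and p-values were adjusted by Benjamini-Hochberg, with calls at 0.05. The fit was tested on simulated data. The main probe of a gene was the tested probe with the highest mean. Named list genes were those called, then up to 2 highest and 2 lowest of a list that met the study's definition without overlap with GFP. Members and lists were chosen with earlier results of these data known. The number of arrays limits the precision. Alternatives were scanner values, other normalizations, filters and fits, replicate number or slide as a block, other probes, and each array left out.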

Additional observations from a re-analysis of the deposited data

Results flagged for a closer look

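Il1rn was set aside because every NICD1 array lay below the mean of the GFP arrays and every NICD2 array above it. With probe A_52_P431159 NICD1 was lower than NICD2 by -0.65, a difference that did not pass the test (limma, adjusted p = 1.0) and that had the other sign with the second probe.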

How the results depend on the processing

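The count of members called, Il1b left out against GFP, stayed at 0 in all 6 comparisons under all 126 alternative counts. Of 730 recomputed member differences 13 changed sign, and none of the tested differences crossed the threshold. Il1b against GFP has no test and was judged by size, and 8 of its values moved by more than the spread between arrays. With normexp background correction and quantile normalization the Il1b differences from GFP shrank to -0.96 in NICD1, -1.0 in NICD2 and -0.92 in NICD1&2, and with its second probe they were -1.21, -1.27 and -0.93. With slide as a block the NICD1 value was -2.17, and with the replicate block the NICD1&2 value was -1.53. Leaving out 1 array at a time gave -2.11 to -1.94 in NICD1, -2.86 to -2.04 in NICD2 and -1.85 to -1.64 in NICD1&2. With the replicate block the count of members called stayed at 0. Over all probes the calls against GFP went from 3 to 2 in NICD1, from 19 to 12 in NICD2 and from 36 to 26 in NICD1&2. Arrays with the same replicate number did not deviate together (15 pairs, r from -0.41 to 0.17).

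The following differences changed sign, and none was called in either direction. With the second Il1rn probe they were 0.24 for NICD1 and -0.0175 for NICD2 against GFP and 0.26 for NICD1 against NICD2. For Il1a, NICD1 against NICD2 was -0.0294 with normexp and quantile normalization. Leaving out 1 array at a time, the Tnf difference of NICD1 from GFP ranged from -0.17 to 0.13 (0.06 without NICD1 replicate 1 and 0.13 without GFP replicate 2). The Ccl2 differences from GFP ranged from -0.76 to 0.0658, -0.67 to 0.16 and -0.70 to 0.13, each positive only without GFP replicate 3, and that of NICD1 from NICD2 from -0.33 to 0.0273, positive without NICD2 replicate 1 or replicate 3. The Cxcl1 difference of NICD1 from GFP ranged from -0.70 to 0.51 and from NICD2 from -1.20 to 0.0745, each positive only without NICD1 replicate 1. The causes were not tested. Of 288 list medians recomputed in settings chosen after seeing the data, 31 moved by more than the spread between arrays. Signal near background limits Il6 and Cxcl2, for which the arrays give no difference.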
